A study of Mus musculus with 3 samples.

Results

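The clustered histone genes of the mouse were taken as every gene whose symbol begins with Hist1h, Hist2h, Hist3h or Hist4h, which gave 67 of 32285 genes. They comprise 6 linker histone H1 genes, 18 H2A, 18 H2B, 12 H3 and 13 H4 genes. Of these, 54 lie in the Hist1 cluster on chromosome 13, 10 in the Hist2 cluster on chromosome 3, 2 in Hist3 on chromosome 11 and 1, Hist4h4, on chromosome 6. Single-cell RNA counts came from tumours of the line LLC1-sgLkb1, Lewis lung carcinoma cells with LKB1 knockdown, in 3 libraries of 1 sample each. The library labelled CKO+RI is given as from an Sfrp2ΔCol1a2 host, in which Sfrp2 is deleted in cells that use the Col1a2 promoter, given radiation and an immune checkpoint inhibitor. That labelled Flox+RI is given as from an Sfrp2fl/fl host with the same treatment, and the library labelled Flox+ICI from an Sfrp2fl/fl host given the inhibitor alone. All 3 groups carried the same tumour line and received the inhibitor. The design describes an unirradiated lung lesion seeded by tail vein and a later subcutaneous tumour on the irradiated side. The labels do not say which lesion each library holds, which kit was used, which inhibitor was given, how old the mice were or whether animals were pooled. With 1 library per group no test of a difference was possible, so differences below have no replicate check, and the intervals cover counting error only.

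Core histones H2A, H2B, H3 and H4 form the spool on which DNA is wound, and H1 binds the linker DNA between spools. Most clustered histone genes are switched on in S phase, when new DNA needs packaging, through the coactivator NPAT. Their mRNAs usually lack a poly(A) tail and end in a short stem-loop that the protein SLBP binds. Some members also make longer, polyadenylated mRNAs, which are known from differentiated and non-dividing cells. A library primed on poly(A) is known to capture the longer forms better.

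The deposited files held 305275 UMIs (unique molecular identifiers, 1 per captured RNA molecule) of the 67 members in 29866 kept cells. A total of 60 members had at least 50 UMIs and 29 had at least 1000. Hist1h2ba, a germ-line H2B gene, had none, and the other 6 members had 1 to 49. The 5 most abundant members held 61.33% of the histone UMIs and the top 15 held 87.19%. These shares are of UMIs and are not corrected for transcript length. Hist1h2bc, an H2B gene, led with 73403 UMIs (24.04%), ahead of the H2A gene Hist1h2ap with 34599 and the H1 genes Hist1h1b with 33189, Hist1h1c with 24023 and Hist1h1e with 21998.

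A stem-loop of 16 bases lay in the annotated transcript of 43 of 67 members (64.2%), against 83 of 21834 other protein-coding genes (0.38%), in the GENCODE annotation of GRCm38. The transcript stopped within 100 bases of the stem-loop in 21 members and ran on further in 22. Another 20 members had a single exon and no annotated stem-loop. The remaining 4, Hist1h2bc, Hist1h2bp, Hist1h2bq and Hist1h2br, were spliced and had none. Only the longest annotated protein-coding transcript of each gene was read, and only stem-loops with fully paired arms were counted. Shorter transcripts were not searched, so the form given to a gene may depend on that choice. Some single-exon models are short, such as Hist1h2bl at 381 bases and Hist1h4k at 312, and may stop before a stem-loop. That group may therefore reflect incomplete annotation rather than a transcript form. Stem-loops are shown, in capitals within their flanking bases, for an mRNA that stops there (Hist1h2ap), for 3 that run on (Hist1h1c, Hist1h2ac and Hist1h4d) and for a member of the Hist2 cluster (Hist2h2ac), because the library and cell-cycle differences below turn on these genes.
Hist1h2ap: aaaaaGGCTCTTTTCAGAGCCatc
Hist1h1c: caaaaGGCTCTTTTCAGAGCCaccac
Hist1h2ac: ccaaaGGCTCTTTTCAGAGCCcccac
Hist1h4d: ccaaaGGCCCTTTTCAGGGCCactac
Hist2h2ac: aaaaaGGCTCTTTTTAGAGCCaccaa

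The 3 H2A and H1 genes of the Hist1 cluster shown here share 1 stem-loop, and that of the H4 gene differs in its arms. The annotated Hist1h2ap transcript (chr13:21833026-21833507, minus strand) runs 3 bases past the stem-loop. In contrast, that of Hist1h1c (chr13:23738808-23740367, plus strand) runs a further 840 bases, that of Hist1h2ac (chr13:23681467-23683948, minus strand) 2010 bases and that of Hist1h4d (chr13:23581598-23582735, plus strand) 770 bases. The Hist2h2ac transcript (chr3:96220361-96220880, minus strand) ends 57 bases after it. Hist1h2bc (chr13:23684199-23692908, plus strand) has 2 exons, and Hist1h1b (chr13:21779883-21780625, minus strand) is a single exon with no stem-loop in its annotated transcript.

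Promoters were available from RefSeq (GRCm38.p6) for 62 of the 67 members, spanning 250 bases before the start to 50 after it. All matches below count both strands. CCAAT, a box bound by the factor NF-Y, occurred in 53 of 62 (85.5%), against 37.4% of all 32851 promoters. Every H1, H2A, H2B and H3 promoter in the table held it, but only 3 of 12 H4 promoters (25%). The octamer ATTTGCAT, known as the OCT1 site of H2B genes, was in 7 of 17 H2A and 7 of 17 H2B promoters (41.2% each) and in none of the H1, H3 or H4 promoters, against 1.74% of all promoters. TATAAA was in 35 of 62 (56.5%), against 13.6% of all promoters. A promoter of each of 3 classes shows these arrangements, with the motifs in capitals in either orientation, for Hist1h1b (chr13:21780576-21780875, minus strand), Hist2h2ac (chr3:96220831-96221130, minus strand) and Hist1h4d (chr13:23581318-23581617, plus strand).
Hist1h1b: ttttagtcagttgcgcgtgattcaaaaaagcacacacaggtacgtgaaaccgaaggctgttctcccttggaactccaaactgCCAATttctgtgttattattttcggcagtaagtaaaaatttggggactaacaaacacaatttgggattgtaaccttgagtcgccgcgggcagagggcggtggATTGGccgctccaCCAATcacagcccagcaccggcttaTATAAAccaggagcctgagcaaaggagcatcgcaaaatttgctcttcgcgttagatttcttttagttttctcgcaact
Hist2h2ac: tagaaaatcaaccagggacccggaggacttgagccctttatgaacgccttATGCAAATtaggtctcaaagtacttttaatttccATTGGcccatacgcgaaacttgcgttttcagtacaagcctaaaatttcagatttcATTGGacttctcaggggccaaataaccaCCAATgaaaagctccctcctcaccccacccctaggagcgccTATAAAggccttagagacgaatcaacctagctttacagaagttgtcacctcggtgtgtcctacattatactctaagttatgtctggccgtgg
Hist1h4d: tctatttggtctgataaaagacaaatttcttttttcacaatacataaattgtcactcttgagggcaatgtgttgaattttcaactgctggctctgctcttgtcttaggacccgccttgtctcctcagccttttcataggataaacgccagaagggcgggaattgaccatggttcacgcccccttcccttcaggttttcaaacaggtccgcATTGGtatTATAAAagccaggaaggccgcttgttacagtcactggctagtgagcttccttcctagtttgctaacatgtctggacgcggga

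A match is a description of these letters and says nothing of binding. The H1 and H2A promoters each hold 3 CCAAT boxes, whereas the H4 promoter holds 1. The octamer is present in that of Hist2h2ac alone of these 3.

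Sfrp2, the gene deleted in the knockout host, went against its label and was higher where it should be missing. It had 46 UMIs over the kept cells from the library labelled CKO+RI, 3 in that labelled Flox+RI and 6 in that labelled Flox+ICI (0.320, 0.0346 and 0.0913 UMIs per 1000000). Among cells gated on fibroblast markers it had 17, 1 and 2 UMIs in 140, 34 and 129 cells, in the same order. Per 1000000 UMIs of these cells that is 10.1, 3.70 and 6.30. The gap is thus smaller than the counts, and 1 and 2 UMIs are too few to size it. The label places the deletion in Col1a2-expressing cells, and which part of the gene was deleted is not given. Whether the labels stand on the right libraries cannot be told from these files, and every contrast with the library labelled CKO+RI rests on it. Stk11, which encodes LKB1, stood at 31.6, 29.2 and 35.5 UMIs per 1000000. The libraries held 161250286, 101840883 and 75543561 UMIs in all. Kept cells numbered 8383, 11706 and 9777, with median UMIs of 13406, 2576.5 and 3018. Between 31 and 37 barcodes were shared by each pair of libraries.

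Cells were sorted into classes by summed marker genes, none of them histones. Tumour cells (4304, 3669 and 2993 in the libraries labelled CKO+RI, Flox+RI and Flox+ICI) had no Xist UMI by the gate, and 4.91% to 6.83% of them held a UMI of the leukocyte gene Ptprc. Of 12 tumour markers, which also set the gate and so are no check on it, 11 to 12 stood above their level in all kept cells. The lowest were the prolactin-family genes Prl2c3 and Prl2c2, at under 0.05 UMIs per 1000000. Tumour cells were called cycling where Mki67, Top2a, Cdc20 and Cenpf summed to at least 5 per 10000 UMIs. By that gate 38.2% of tumour cells cycled in the library labelled CKO+RI, 45.1% in that labelled Flox+RI and 46.2% in that labelled Flox+ICI. Median UMIs were 32831.5, 19469 and 17666 in cycling cells and 21520, 14325 and 12309 in the others. The members and the contrasts by gate, class and library were chosen by a rule written after these counts had been seen, so the values below describe the members and test nothing. Cells just inside the gate (5 to 6 per 10000) had a summed histone level of 1912, 821 and 683 UMIs per 1000000, and those just outside (4 to 5) had 1760, 720 and 692.

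In cycling tumour cells the 67 members summed to 2110 UMIs per 1000000 in the library labelled CKO+RI, 796 in that labelled Flox+RI and 857 in that labelled Flox+ICI. In non-cycling tumour cells they summed to 1004, 710 and 539. The level was thus highest in cycling cells from the library labelled CKO+RI, and lowest in non-cycling cells of that labelled Flox+ICI. A typical cycling cell had a median of 17.8, 7.15 and 6.43 histone UMIs per 10000, and a typical non-cycling cell 7.38, 6.03 and 4.37.

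**Figure D1:**
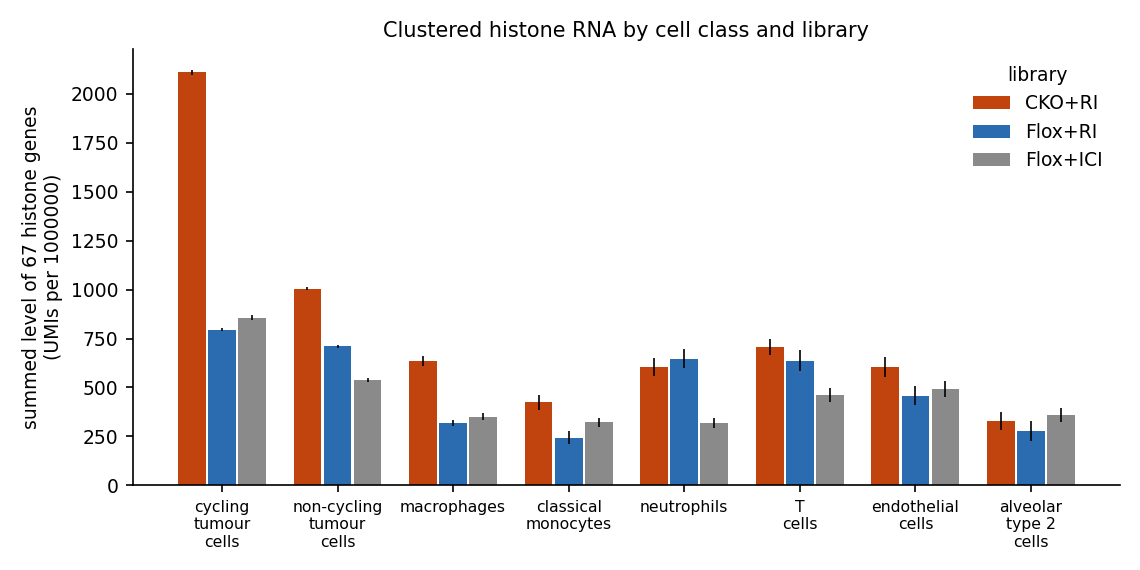
Summed level of the 67 clustered histone genes (UMIs per 1000000) by cell class, with bars for the libraries labelled CKO+RI, Flox+RI and Flox+ICI and error bars for the exact 95% Poisson interval of the count. Cycling tumour cells of the library labelled CKO+RI stand highest at 2110, and alveolar type 2 cells lie between 276 and 357.

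Histone RNA was higher in cycling than in non-cycling tumour cells of each library, but by very different amounts. The summed level was 2.10 times as high (95% interval 2.08 to 2.12) in the library labelled CKO+RI, 1.12 times (1.10 to 1.14) in that labelled Flox+RI and 1.59 times (1.55 to 1.63) in that labelled Flox+ICI. A member was measured where both arms together held at least 50 UMIs. Over the 23 members whose last annotated stretches no other gene shares, a selection added after the data were seen, the ratio was 1.42, 0.942 and 1.23, so that in the library labelled Flox+RI the direction turned.

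By gene, 34 of 55 measured members were at least 2-fold higher in cycling cells of the library labelled CKO+RI, beside 2.49% of all genes measured, and 0 were 2-fold lower, beside 1.42%. In the library labelled Flox+RI 17 of 51 were higher, beside 1.88%, and 1 was lower, beside 0.823%. In the library labelled Flox+ICI 24 of 42 were higher, beside 2.44%, and 1 was lower, beside 0.794%. The 1 lower member was Hist1h2bc in both. With every cell thinned to 2000 UMIs, 16 of 22, 8 of 20 and 8 of 13 measured members were at least 2-fold higher, beside 3.4%, 2.4% and 2.7% of genes. With the cycling gate at 10 per 10000, 3 members were higher in the library labelled Flox+RI, and 8 with cells gated on S phase genes. The number measured and the share of all genes at these gates are not given, so these counts have no background. The median log2 difference of the members was 1.47, 0.49 and 1.42, against 0.02, 0.04 and 0.01 over all genes. The gate chose these contrasts, and nothing is read from the excess over the background shares. Another 12, 16 and 25 members fell below the minimum.

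The linker histone gene Hist1h1b, known as a replication-dependent H1, was among the 3 members with the highest ratios of cycling over non-cycling cells, by the bound of the interval nearest to 1, in each library. It stood at 278 UMIs per 1000000 in cycling and 42.0 in non-cycling cells from the library labelled CKO+RI, 132 and 35.03 in that labelled Flox+RI, and 212 and 29.5 in that labelled Flox+ICI. These are ratios of 6.62 (6.35 to 6.90), 3.77 (3.53 to 4.03) and 7.19 (6.62 to 7.82). The other H1 genes divided: Hist1h1a, Hist1h1e and Hist1h1d were also higher in cycling cells of every library, at ratios between 1.502 and 5.74. Hist1h1e overlaps Hist1h2be on the same strand, so their reads cannot be told apart there.

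Hist1h1c, an H1 gene known to make polyadenylated mRNA in non-dividing cells, went the other way. It stood at 79.2 UMIs per 1000000 in cycling and 108 in non-cycling cells from the library labelled CKO+RI, 71.1 and 93.2 in that labelled Flox+RI, and 61.5 and 88.2 in that labelled Flox+ICI (ratios 0.736, 0.762 and 0.697). Hist1h2bc did so more strongly, at 258 and 398, 147 and 294, and 122 and 265 UMIs per 1000000 in cycling and non-cycling cells of the same 3 libraries (ratios 0.649, 0.498 and 0.461). Of the 42 members measured in every library, these were the 2 that were lower in cycling cells in all 3, while 34 were higher in all 3 and 6 were mixed. Without Hist1h2bc the summed ratios of cycling over non-cycling cells were 3.05, 1.56 and 2.67.

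**Figure D2:**
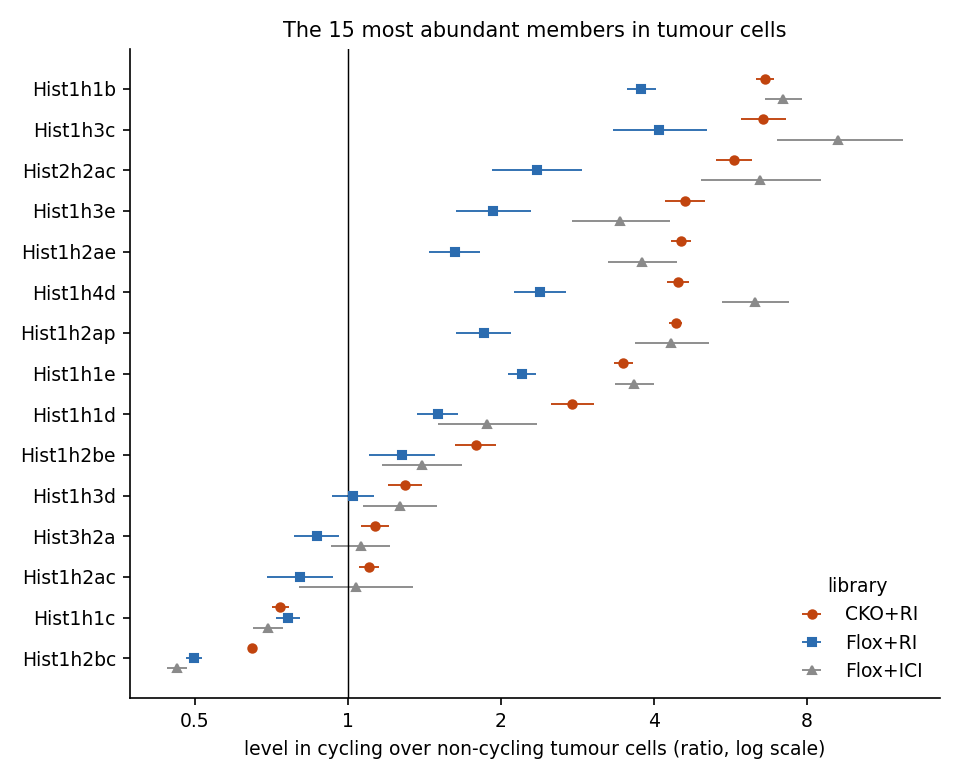
Level in cycling over non-cycling tumour cells (ratio, log scale) for the 15 members with the most UMIs, with points for the libraries labelled CKO+RI, Flox+RI and Flox+ICI and lines for exact 95% counting intervals. Hist1h1b is at the top with 6.62, 3.77 and 7.19, and Hist1h2bc and Hist1h1c lie below 1 in every library.

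Among core histone genes, the H2A gene Hist1h2ap was 4.41, 1.85 and 4.33 times as high in cycling cells of the libraries labelled CKO+RI, Flox+RI and Flox+ICI. The H3 gene Hist1h3c was 6.56, 4.10 and 9.20 times as high, at 46.7 against 7.12, 13.8 against 3.36 and 23.6 against 2.56 UMIs per 1000000. The H4 gene Hist1h4d reached 6.33 in the library labelled Flox+ICI, the H2B gene Hist2h2bb 8.48 and the H2A gene Hist1h2ab 7.27 in that labelled CKO+RI, and the H2A gene Hist1h2af 5.38 in that labelled Flox+RI. At the low end, beside Hist1h2bc and Hist1h1c, stood the germ-line H1 gene Hist1h1t at 0.593 (0.316 to 1.08) in the library labelled CKO+RI and the H4 gene Hist2h4 at 0.572 (0.464 to 0.704) in that labelled Flox+RI. In the library labelled Flox+ICI the H2A gene Hist3h2a was next by the upper bound of its interval, at 1.06 (0.927 to 1.21). By the ratio itself it was not next: Hist1h2ac, for 1, was lower at 1.04, with a wider interval (0.803 to 1.34).

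Histone classes differed in how they made up the total. H2B held 43.1%, 46.6% and 52.9% of the histone UMIs in non-cycling cells of the libraries labelled CKO+RI, Flox+RI and Flox+ICI, against 16.9%, 24.7% and 19.1% in cycling cells. Nearly all of that was Hist1h2bc: the other H2B genes held 3.51%, 5.18% and 3.87% in non-cycling cells and 4.69%, 6.34% and 4.84% in cycling cells, so without it the direction turned. H1 held 26.4%, 43.3% and 46.3% in cycling cells. At least 2-fold higher in cycling cells were 10 of 13 measured H2A genes in the library labelled CKO+RI, 6 of 12 in that labelled Flox+RI and 9 of 11 in that labelled Flox+ICI. Of the H4 genes it was 4 of 11, 1 of 9 and 2 of 7. Of all genes measured, 2.49%, 1.88% and 2.44% were that much higher in these libraries. For a list of 5 members known in mouse or human to make polyadenylated mRNA outside S phase (Hist1h1c, Hist1h2bc, Hist2h2be, Hist1h2ac and Hist3h2a), 0 were 2-fold higher in any library, and the median log2 difference was 0.14, −0.31 and −0.25. Hist1h2bc was the 1 at least 2-fold lower in the libraries labelled Flox+RI and Flox+ICI, beside 0.823% and 0.794% of all genes. The list was chosen with earlier results of these data known and holds Hist1h2bc and Hist1h1c, so its median is no separate check.

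The annotated transcript form went with these differences only in part. Members whose transcript runs past the stem-loop had median log2 differences of 0.72, 0.22 and 0.81 in the libraries labelled CKO+RI, Flox+RI and Flox+ICI, and members that stop at it 1.43, 0.89 and 2.13. Single-exon members with no annotated stem-loop, such as Hist1h1b, had 2.34, 1.08 and 2.01. Some of their models may stop before a stem-loop, so this group is not read as a form of its own. Hist1h4d, whose transcript runs on for 770 bases, was nonetheless 4.46, 2.39 and 6.33 times as high in cycling cells.

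Tumour cells were further divided by 23 S phase genes, such as Pcna and the Mcm helicase genes, at 10 per 10000 UMIs, in combination with the mitotic gate. Cells low for both, high for S phase alone, high for both and high for mitotic genes alone had 938, 1205, 2523 and 1712 histone UMIs per 1000000 in the library labelled CKO+RI. The same order gave 685, 753, 907 and 670 in the library labelled Flox+RI and 550, 512, 977 and 675 in that labelled Flox+ICI. The level was highest in cells high for both, in each library. Cells high for S phase genes alone had less than cells high for both.

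Along these groups Hist1h1b had 19.1, 112, 398 and 163 UMIs per 1000000 for the library labelled CKO+RI, 15.4, 68.6, 178 and 79.8 in that labelled Flox+RI, and 17.7, 59.3, 271 and 123 in that labelled Flox+ICI. It was thus lowest in cells low for both. Hist1h2ap, in turn, had 54.4, 211, 546 and 281 UMIs per 1000000 in the library labelled CKO+RI, against 8.94, 17.2, 29.1 and 14.2 in that labelled Flox+RI and 6.50, 11.9, 42.5 and 23.0 in that labelled Flox+ICI. Hist1h2bc ran the opposite way, with 426, 311, 223 and 292 for the library labelled CKO+RI, 307, 273, 152 and 140 in that labelled Flox+RI, and 288, 206, 115 and 133 in that labelled Flox+ICI. It was highest in cells low for both in every library.

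**Figure D3:**
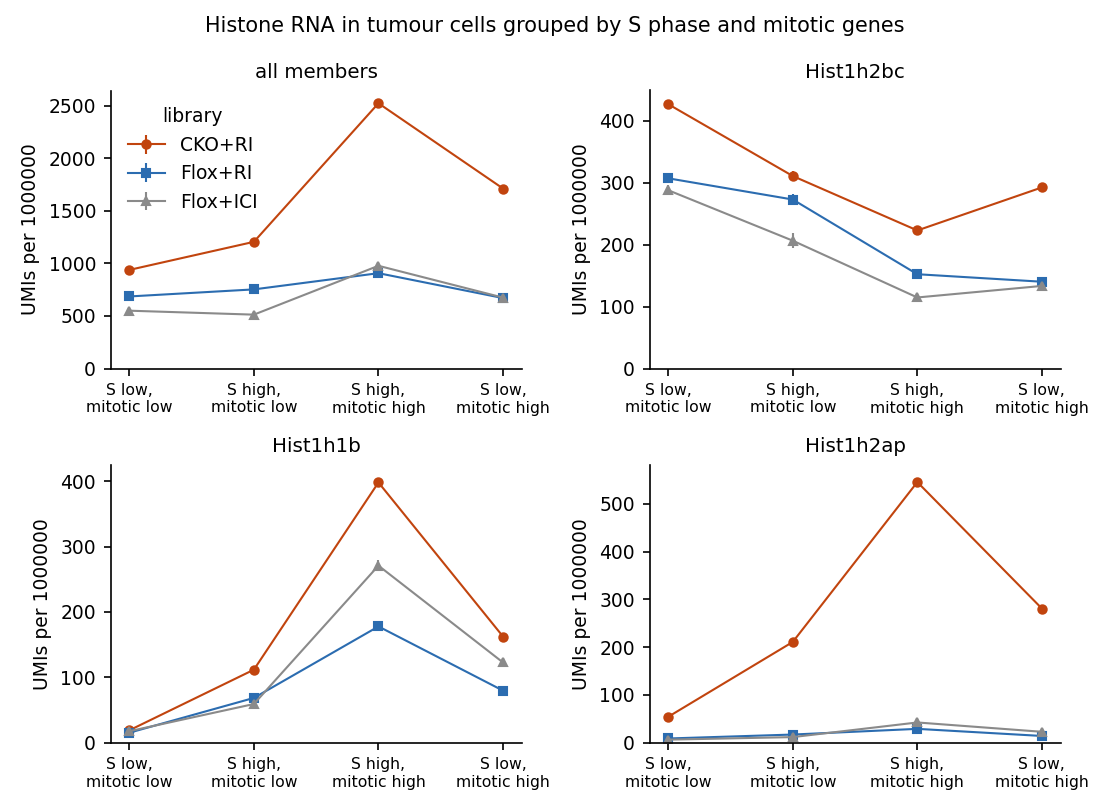
Level (UMIs per 1000000) of all members, Hist1h2bc, Hist1h1b and Hist1h2ap in tumour cells grouped as low or high for S phase and mitotic genes, with lines for the libraries labelled CKO+RI, Flox+RI and Flox+ICI and error bars for exact 95% Poisson intervals. Hist1h1b peaks at 398, 178 and 271 in cells high for both, where Hist1h2bc is at 223, 152 and 115.

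Genes that cycle without belonging to the clusters framed these values. In cycling over non-cycling cells of the libraries labelled CKO+RI, Flox+RI and Flox+ICI, 20, 19 and 20 of 20 G2 and M genes outside the gate were at least 2-fold higher. Of the 23 S phase genes, 4, 1 and 5 were. Among all genes measured the shares were 2.49%, 1.88% and 2.44%. The variant genes H2afx and Cenpa, which encode the DNA-damage H2A.X and the centromeric H3, were 3.71, 2.52 and 3.59 and 4.80, 2.55 and 3.60 times as high. H2afz, for H2A.Z, was 1.99, 1.44 and 1.85 times as high. Slbp was 1.20, 1.11 and 1.21 times as high, and Npat 1.07, 1.09 and 1.03 times, with all 3 intervals of Npat spanning 1. Histone chaperone genes were mostly within 2-fold, except Asf1b, whose product hands H3 and H4 to new DNA, at 3.06, 2.07 and 2.95.

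The library labelled CKO+RI differed from that labelled Flox+RI mostly by H2A genes. In cycling tumour cells the summed level was 2.65 times as high (2.62 to 2.69), with 28 of 55 measured members at least 2-fold higher, beside 3.29% of all genes, and 0 lower, beside 6.15%. The median log2 difference was 1.07 for members and 0.00 for all genes. In non-cycling cells it was 1.41 times as high (1.39 to 1.44), with 10 of 50 higher, beside 3.72%, and 2 lower, Hist1h1d and Hist2h4, beside 5.8%. There the median log2 difference was only 0.03, and 18 intervals lay above 1 and 14 below. These contrasts were also part of the rule, so nothing is read from the counts. Median depth was also higher in the library labelled CKO+RI, in both states. With every cell thinned to 2000 UMIs the summed ratios were 2.45 in cycling and 1.37 in non-cycling cells, and 12 of 24 and 4 of 19 measured members were higher. With the cycling gate at 2 per 10000, 6 members were higher in non-cycling cells, with no share of all genes given beside them.

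The H2A genes summed to 835 UMIs per 1000000 in cycling cells from the library labelled CKO+RI, 108 in that labelled Flox+RI and 139 in that labelled Flox+ICI. They held 39.6%, 13.6% and 16.3% of the histone UMIs there. H1 genes summed to 557, 345 and 397, H2B to 357, 197 and 164, H3 to 175, 91.04 and 79.2, and H4 to 187, 54.7 and 77.8. Every class was thus highest in the library labelled CKO+RI, and H2A differed most. Of 13 measured H2A genes, 10 were at least 2-fold higher there than in the library labelled Flox+RI, with a median log2 difference of 1.62, against 7 of 13 H2B genes, 5 of 12 H3, 5 of 12 H4 and 1 of 5 H1. Of all genes measured, 3.29% were that much higher.

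Hist1h2ap, an H2A gene whose transcript ends at the stem-loop, stood furthest apart. It had 22867 UMIs in cycling cells from the library labelled CKO+RI, 757 in that labelled Flox+RI and 864 in that labelled Flox+ICI, which is 411, 22.2 and 34.7 UMIs per 1000000. Between the libraries labelled CKO+RI and Flox+RI the ratio was 18.5 (17.2 to 19.9) in cycling cells and 7.77 in non-cycling cells (7.01 to 8.63; 93.1 against 12.0 UMIs per 1000000). Its gene overlaps Gm44466 on the opposite strand. All of its last 200 windows of 91 bases occur in another annotated gene, and how reads with several matches were counted is not given. Its counts are therefore uncertain as to the copy. Of the genes it shares windows with, Hist1h2ag and Hist1h2ah, named here after their values were seen, had at most 0.0617 UMIs per 1000000 in any of these groups, while others, such as Hist1h2ae and Hist1h2ab, were also several-fold higher in the library labelled CKO+RI.

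A UMI of Hist1h2ap was found in 87.7% of cycling tumour cells of the library labelled CKO+RI (median 32831.5 UMIs a cell), 29.1% in that labelled Flox+RI (19469) and 33.3% in that labelled Flox+ICI (17666). In cells thinned to 2000 UMIs the shares were 44.2%, 4.78% and 5.79%. Neutrophils, which do not divide and should lack a replication-dependent message, held one in 8.94%, 0.22% and 0.441% of cells at median depths of 1855.5, 732 and 1069.5 UMIs. After thinning, which left out 351 of 604 neutrophils, 7.91% still held one in the library labelled CKO+RI. A share at or below that of neutrophils is not read as expression here.

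Other H2A genes were also several-fold higher in cycling cells of the library labelled CKO+RI. Hist1h2ae stood at 173 UMIs per 1000000 there, against 23.8 in that labelled Flox+RI (7.26-fold) and 35.1 in that labelled Flox+ICI. Hist1h2ac was at 69.6, 9.67 and 5.47 (7.20-fold over the library labelled Flox+RI), Hist2h2ac at 65.7, 9.93 and 19.0 (6.62-fold) and Hist1h2ab at 31.9, 5.33 and 8.84 (5.99-fold). These span members that stop at the stem-loop, such as Hist2h2ac, and members that run on for 2010 bases past it, such as Hist1h2ac. The H4 gene Hist1h4d was at 147, 28.6 and 58.1 (5.14-fold).

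At the other end of that comparison in cycling cells, the H3 gene Hist2h3c1 was at 0.641 times the level in the library labelled Flox+RI (0.511 to 0.803), the linker gene Hist1h1d at 0.762 times (0.705 to 0.823) and the H4 gene Hist1h4j at 0.750 times. In non-cycling cells Hist1h2ap, Hist1h2ac (5.27-fold) and Hist1h4d (2.75-fold) led by the bound of the interval nearest to 1. Lowest by that bound were Hist1h1d at 0.414, the H4 gene Hist2h4 at 0.397 and the H3 gene Hist2h3c2 at 0.557. Of 5 measured H1 genes in non-cycling cells, Hist1h1d was the 1 at least 2-fold lower and 0 were higher, with a median log2 difference of 0.03. Of all genes measured there, 5.8% were that much lower and 3.72% higher. Hist1h1d stood at 9.55 UMIs per 1000000 in non-cycling cells from the library labelled CKO+RI, 23.1 in that labelled Flox+RI and 5.55 in that labelled Flox+ICI.

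By annotated form, 9 of 16 members that stop at the stem-loop, 6 of 20 that run past it, 12 of 16 single-exon members without it and 1 of 3 spliced members were at least 2-fold higher in cycling cells of the library labelled CKO+RI than in those labelled Flox+RI. Of all genes measured, 3.29% were that much higher. The single-exon group may again reflect models that stop before a stem-loop. Without Hist1h2ap, an alternative added after the data were seen, the summed ratio was 2.20 in cycling cells and 1.31 in non-cycling cells. Over the 23 members with no shared last stretch it was 1.97 and 1.31.

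**Figure D4:**
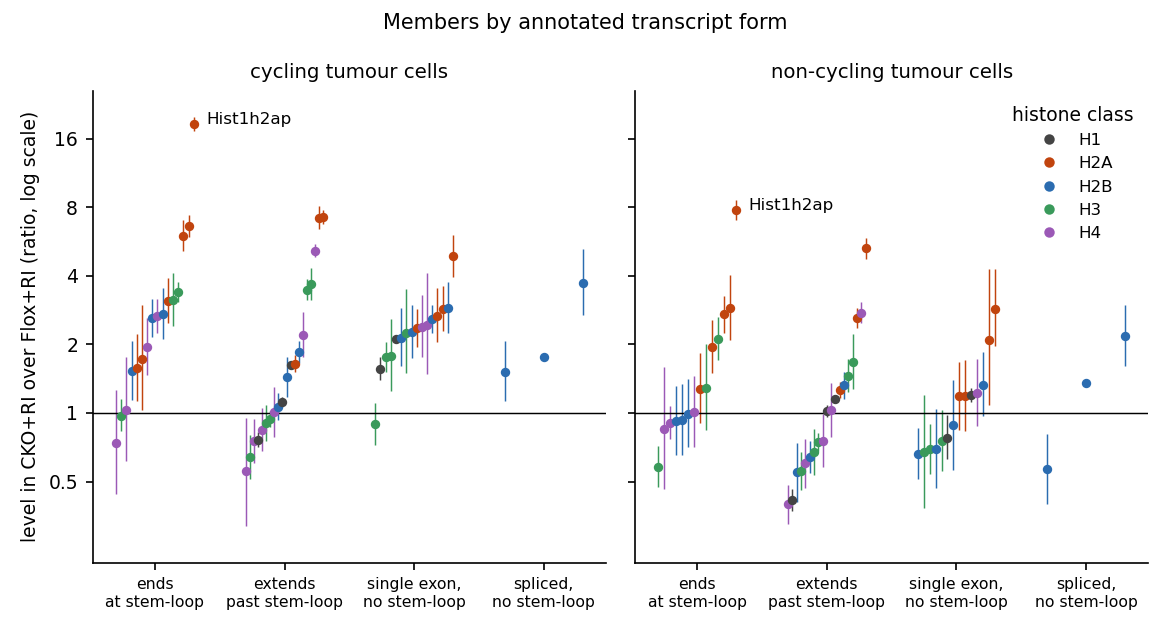
Level in the library labelled CKO+RI over that labelled Flox+RI (ratio, log scale) for each measured member, grouped by annotated transcript form and coloured by histone class, in cycling and non-cycling tumour cells, with lines for exact 95% counting intervals. Hist1h2ap is highest at 18.5 and 7.77, and H2A genes lead the forms with a stem-loop.

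Genes of the cell cycle and of histone handling outside the clusters were mostly within 2-fold between these 2 libraries. In cycling cells 0 of 23 S phase genes were at least 2-fold higher or lower (median log2 difference −0.08), as were 0 of 20 G2 and M genes (0.19), 0 of 14 genes of histone mRNA transcription and processing (−0.06) and 0 of 9 chaperone genes (0.02). Of all genes measured, 3.29% were that much higher and 6.15% lower. Slbp was at 0.931 times and Npat at 0.965 times. Of 9 variant genes 1 was higher, H3f3a for H3.3, at 914 UMIs per 1000000 in the library labelled CKO+RI, 447 in that labelled Flox+RI and 778 in that labelled Flox+ICI. Library preparation and host cannot be told apart here with 1 library each.

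Between the libraries labelled Flox+RI and Flox+ICI, members were mostly higher in non-cycling tumour cells of that labelled Flox+RI, and the cycling sum differed little. All genes had a median log2 difference of −0.22 in both states, a shift to set beside the values below. In cycling cells the members summed to 0.930 times the level (0.913 to 0.947), with 6 of 49 measured members at least 2-fold higher, beside 2.23%, and 1 lower, Hist1h4d, beside 5.42%. Thinned to 2000 UMIs the summed ratio was 1.03, so this direction turned, and 3 of 16 members were higher. By gene, 20 intervals lay above 1 and 9 below. In non-cycling cells the sum was 1.32 times as high (1.29 to 1.35), with 22 of 45 higher, beside 2.61%, and 0 lower, beside 5.93%. There 37 of 45 intervals lay above 1 and none below. However, 5 of 14 measured members were 2-fold higher after thinning, and 9 members with the cycling gate at 2 per 10000. The number measured and the share of all genes at that gate are not given. Members' median log2 difference was 0.25 in cycling and 0.99 in non-cycling cells. The library labelled Flox+RI stands in both library comparisons.

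The linker gene Hist1h1d stood at 34.7 UMIs per 1000000 in cycling cells of the library labelled Flox+RI and 10.4 in that labelled Flox+ICI (3.33-fold), and at 23.1 and 5.55 in non-cycling cells (4.16-fold). The H2B gene Hist1h2bg was at 2.21-fold and 3.55-fold. The H3 gene Hist1h3d, chosen by its interval (1.65 to 2.11), was at 1.87-fold in cycling cells, where members with fewer UMIs had larger ratios and wider intervals. In cycling cells the lowest by the interval were Hist1h4d at 0.492 times, Hist2h2ac at 0.524 and Hist1h1b at 0.624. In non-cycling cells Hist1h2bp had the highest ratio, 8.73, on 66 UMIs against 5, and Hist1h1c, Hist1h2bc and Hist1h2be were lowest by the interval, at 1.06, 1.11 and 1.02. The members at least 2-fold higher in non-cycling cells were 7 of 12 measured H2B genes, 5 of 9 H3, 5 of 8 H4, 3 of 11 H2A and 2 of 5 H1. Of all genes measured there, 2.61% were that much higher.

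Of the host cells, 6 classes held at least 50 cells in all 3 libraries, and each had a lower summed level than cycling tumour cells of its library. Their markers all stood above the level in all kept cells, and none was at 0. The same markers set the gates, so this is no check on the class names. In bulk sums of this kind fewer expressing cells and less RNA per cell cannot be told apart. Macrophages (473, 897 and 663 cells) summed to 635, 319 and 350 histone UMIs per 1000000 in the libraries labelled CKO+RI, Flox+RI and Flox+ICI. T cells had 705, 638 and 461, and neutrophils 605, 647 and 319. Classical monocytes had 424, 244 and 323, endothelial cells 603, 457 and 491, and alveolar type 2 cells 326, 276 and 357. Without doublet removal the alveolar type 2 level in the library labelled CKO+RI was 639.7. Thinned to 2000 UMIs, which left 96 neutrophils in the library labelled Flox+ICI, their level there was 203.1.

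The library labelled CKO+RI was higher than that labelled Flox+RI in macrophages (1.99-fold, 1.86 to 2.13), classical monocytes (1.73-fold, 1.48 to 2.04) and endothelial cells (1.32-fold, 1.15 to 1.52). The intervals of neutrophils (0.935, 0.840 to 1.04), T cells (1.11, 0.999 to 1.23) and alveolar type 2 cells (1.183, 0.935 to 1.503) spanned 1. Between the libraries labelled Flox+RI and Flox+ICI the neutrophil sum differed most, at 2.03-fold (1.82 to 2.27), and at 3.385-fold after thinning, which left 8 and 96 cells. T cells were at 1.38, endothelial cells at 0.930, macrophages at 0.910, alveolar type 2 cells at 0.772 and classical monocytes at 0.758. Without Hist1h2bc the macrophage ratio was 1.10, which turned its direction.

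Hist1h2bc was the leading member in macrophages, monocytes, neutrophils, endothelial and alveolar type 2 cells of every library. Neutrophils, which have left the cell cycle, held 239, 257 and 141 UMIs per 1000000 of it. Cycling tumour cells held 258, 147 and 122. Neutrophils were thus higher in the libraries labelled Flox+RI and Flox+ICI and lower in that labelled CKO+RI, with the widest gap in that labelled Flox+RI. T cells stood apart: Hist1h2ap led in the library labelled CKO+RI at 115, and Hist1h1b in those labelled Flox+RI and Flox+ICI at 88.0 and 85.5. The cycling gate used for tumour cells was passed by 10.3%, 20.7% and 17.9% of T cells. Of neutrophils 10.3%, 9.59% and 9.51% passed it, at depths where very few UMIs are enough. The 33 platelet-gated barcodes of the library labelled CKO+RI, with a median of only 605 UMIs, summed to 2555, of which Hist1h2bc gave 1202.

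The level of Hist1h2ap was higher in the library labelled CKO+RI than in both others in all 6 host classes. Macrophages had 70.8, 5.91 and 4.37 UMIs per 1000000 in the libraries labelled CKO+RI, Flox+RI and Flox+ICI, a ratio of 12.0 (7.94 to 18.8) between the first of these and the library labelled Flox+RI. Neutrophils had 48.0, 2.80 and 3.72 on 56, 3 and 7 UMIs (17.1, 5.57 to 85.5), and T cells 115, 28.9 and 14.0 (3.98). Monocytes had 42.8, 3.19 and 8.76, endothelial cells 38.4, 9.99 and 8.08, and alveolar type 2 cells 29.7, 0 and 6.73. In the library labelled CKO+RI, 8.94% of neutrophils and 6.62% of endothelial cells held a UMI. By the limit given above, neither share is read as expression. After thinning to 2000 UMIs, monocytes (7.53%), endothelial cells (4.03%) and alveolar type 2 cells (6.38%) there were below neutrophils (7.91%, interval 4.9% to 11.9%). Macrophages (9.05%, 6.45% to 12.3%) and T cells (10.2%, 7.34% to 13.7%) were above neutrophils, but their intervals overlapped that of neutrophils. Endothelial and alveolar type 2 cells held too few Hist1h2ap UMIs for a ratio between the libraries labelled CKO+RI and Flox+RI. Erythroid cells of the library labelled CKO+RI, which had 6.43% of barcodes with a UMI, were at 28.9. Over all tumour cells the ratio was 14.1 (13.3 to 14.98). Neutrophils thus showed a ratio about as large as tumour cells did, with a wide interval, and the part of free RNA in the host values was not tested.

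**Figure D5:**
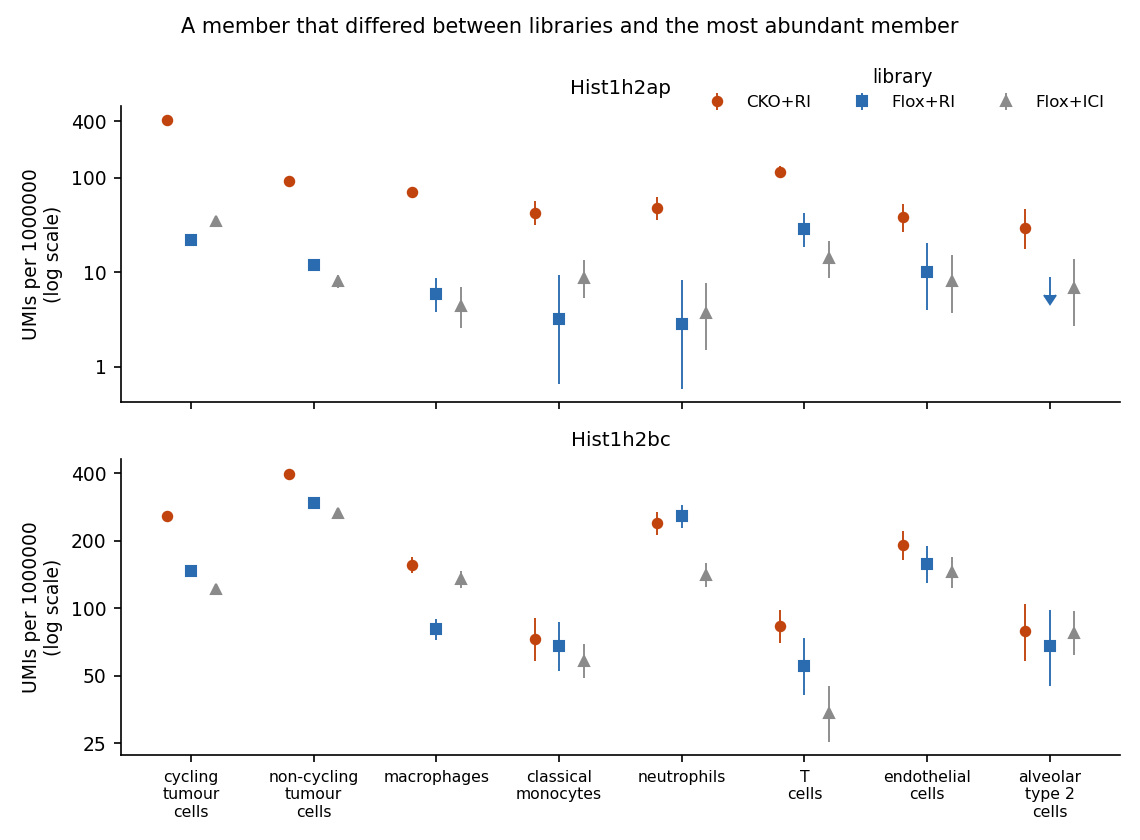
Level of Hist1h2ap and Hist1h2bc (UMIs per 1000000, log scale) by cell class, with points for the libraries labelled CKO+RI, Flox+RI and Flox+ICI and lines for exact 95% Poisson intervals, where a downward triangle marks a count of 0. Hist1h2ap in the library labelled CKO+RI lies above both others in all 8 classes, and Hist1h2bc in neutrophils is at 239, 257 and 141.

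Hist1h4i, an H4 gene, was the 1 member at least 3 times as high in a host class as in cycling tumour cells, with at least 50 UMIs there. Neutrophils held 23.98, 62.5 and 28.7 UMIs per 1000000 in the libraries labelled CKO+RI, Flox+RI and Flox+ICI, on 28, 67 and 54 UMIs. Macrophages had 17.8, 9.93 and 11.3 on 70, 42 and 44 UMIs, and T cells 15.9, 20.8 and 19.4. Cycling tumour cells were at 0.503, 0.908 and 0.321. These 3 host classes were thus above tumour cells in every library. Its stem-loop, printed with flanks as above, is followed by 330 annotated bases.
Hist1h4i: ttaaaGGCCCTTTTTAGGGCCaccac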

How the data were processed

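Gene by barcode tables of whole-number UMI counts were deposited by the authors for 3 libraries, 1 per group, with no normalization. Per the submitters' processing notes they used Cell Ranger 6.0, Seurat 5.0.3 and genome mm10 (GRCm38); the file headers name Cell Ranger 6.1.2. The gene annotation and the handling of reads with several matches are not given in the sources used here.

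A barcode was kept where it had 200 genes or more and no more than 20% of its UMIs from mitochondrial genes. Scrublet in scanpy 1.11.5 was used to remove the highest doublet scores, at 0.8% per 1000 barcodes, which took 653, 1367 and 915 barcodes of the libraries labelled CKO+RI, Flox+RI and Flox+ICI and left 29866 of 33482. Each deposited barcode had at least 500 UMIs. A cell joined the class whose summed markers passed its threshold (10 to 500 per 10000 UMIs), with at least 2 markers present and 2 times the next class; tumour cells also needed 3000 UMIs and no Xist. The thresholds were set after the data were seen.

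Levels are UMIs of a gene summed over the cells of a class per 1000000 UMIs of that class, with exact 95% Poisson intervals. Ratios carry exact conditional binomial intervals, and shares of cells Clopper-Pearson intervals (python 3.11.15, numpy 2.4.6, scipy 1.17.1, pandas 2.3.3, matplotlib 3.10.9). Members under 50 UMIs in both arms together were not counted as measured, and a member called higher or lower differed by at least 2-fold in either direction. All genes went through the same calculation, which was tested on simulated data. No test between groups was made, since each group is 1 library. Transcript ends were read from GENCODE vM21 models of GRCm38, and promoters from RefSeq.

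The members, gene lists and rules were chosen with earlier results of these data known. Named are the 15 members with the most UMIs, the 3 highest and 3 lowest of each tumour comparison by the interval bound nearest to 1, the leading member of each class, members at least 3 times as high in a host class as in cycling tumour cells, and those that small counts needed. Other marker, doublet, thinning, gate and member settings were tried.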

Additional observations from a re-analysis of the deposited data

Results flagged for a closer look

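Of the 42 members measured in every library, 3 had intervals of the ratio of cycling over non-cycling tumour cells on opposite sides of 1 in different libraries, and these differences between libraries were not tested. Hist1h4h, an H4 gene, was at 1.99 (1.76 to 2.26) in the library labelled CKO+RI, 0.679 (0.552 to 0.834) in that labelled Flox+RI and 1.39 (1.06 to 1.83) in that labelled Flox+ICI. Hist1h2ac, an H2A gene whose annotated mRNA runs past its stem-loop, was at 1.10 (1.05 to 1.15), 0.806 (0.694 to 0.936) and 1.04 (0.803 to 1.34) in the same order. Hist3h2a, an H2A gene that overlaps Trim17 on the same strand, was at 1.13 (1.06 to 1.21), 0.868 (0.783 to 0.962) and 1.06 (0.927 to 1.21). All 3 were thus lower in cycling cells of the library labelled Flox+RI.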

How the results depend on the processing

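Of 373 recomputed values 264 stayed within the 95% counting interval (1.5 times for counts of members), 106 moved and 3 reversed. A reversal was counted only where the interval first left out 1, so the other values include ratios that changed side. The cause was not tested. Another 5 ratios whose interval spanned 1 changed side: CKO+RI over Flox+RI in neutrophils (1.204 without doublet removal, 1.013 as a mean over cells) and T cells (0.7467 thinned, 0.9695 without Hist1h2ap), and Flox+RI over Flox+ICI in endothelial cells (1.036 thinned). Values are for the libraries labelled CKO+RI, Flox+RI and Flox+ICI in turn, with cycling before non-cycling cells in the library ratios, which give CKO+RI over Flox+RI and then Flox+RI over Flox+ICI. Without doublet removal the tumour level of the library labelled Flox+RI was 747.6 UMIs per 1000000. Without mitochondrial genes the tumour levels were 1564, 782.8 and 733.5, and the CKO+RI over Flox+RI ratio in cycling cells was 2.615. As a mean over cells the levels were 1405, 779.9 and 675.9, the cycling ratios 2.222, 1.165 and 1.631, the CKO+RI over Flox+RI ratios 2.516 and 1.32, and the Flox+RI over Flox+ICI ratios 0.9909 and 1.387.

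Thinned to 2000 UMIs, the levels were 1415, 783.9 and 674.1, and the cycling ratio was 2.179 for the library labelled CKO+RI and 1.215 for that labelled Flox+RI, with 16 of 22, 8 of 20 and 8 of 13 measured members 2-fold higher, beside 3.4%, 2.4% and 2.7% of genes. The CKO+RI over Flox+RI ratios were then 2.448 and 1.366, with 12 of 24 and 4 of 19 members higher (2.33% and 2.56% of genes), and the Flox+RI over Flox+ICI ratios 1.032, a reversal, and 1.348, with 3 of 16 and 5 of 14 higher (1.27% and 1.76% of genes). With class thresholds doubled the CKO+RI over Flox+RI ratio in non-cycling cells was 1.441. A cycling gate at 10 gave cycling ratios of 1.514, 1.079 and 1.424, with 3 members higher in the library labelled Flox+RI, and library ratios of 2.587 and 1.843, then 0.8961 and 1.182. A gate at 2 gave 2.27 and 1.214 for the libraries labelled CKO+RI and Flox+RI, then 2.431 and 1.3, with 6 members higher in non-cycling cells, and 0.9847, with 9 higher in non-cycling cells. Cells gated on S phase genes gave 1.665, 1.246 and 1.408, with 8 members higher in the library labelled Flox+RI. For these other gates the share of all genes past 2-fold is not given, so the counts of members have no background.

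Without Hist1h2bc the cycling ratios were 3.054, 1.562 and 2.673, the library ratios 2.85 and 1.457, then 0.8848 and 1.514, and the Flox+RI over Flox+ICI ratio in macrophages was 1.102, a reversal. Without Hist1h2ap, chosen after seeing the data, the cycling ratios of the libraries labelled CKO+RI and Flox+ICI were 1.865 and 1.547 and the CKO+RI over Flox+RI ratios 2.195 and 1.305. Over the 23 members with no shared last stretch, also chosen after seeing the data, the cycling ratios were 1.416, 0.9423, a reversal, and 1.231, and the library ratios 1.971 and 1.311, then 0.9526 and 1.245. These 23 include Hist1h2bc. The summed level uses no minimum on UMIs, so dropping that minimum gives the same value. No paired analysis was possible because each group is 1 library and the labels carry no replicate numbers. Depth limits host classes most: neutrophils had medians of 1855.5, 732 and 1069.5 UMIs a cell.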
